A study of Caenorhabditis elegans with 39 samples.

Results

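The genes described here are the 110 CSR-1-class 22G-RNA loci that had the highest small RNA levels in wild type distal gonads of *C. elegans* and kept a similar level in *mut-16* gonads. A locus was taken when it is annotated as CSR-1-class, when its mean small RNA value in wild type gonads was 2500 or more, and when the ratio of the *mut-16* mean to the wild type mean lay between 0.6 and 1.8 after 1 was added to each. Of 3640 CSR-1-class loci among 21815 small RNA features, 118 reached the level and 110 of these lay inside the band. The other 8 lay at or below 0.6 and 0 lay above 1.8. All 110 have a row in the mRNA table, all 110 passed the filter on low values in every comparison, and 98 carry a gene name in RefSeq. They are CSR-1-class by the deposited annotation, since binding to CSR-1 was not measured in these libraries.

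22G-RNAs are short interfering RNAs that RNA-dependent RNA polymerases copy from mRNA templates in the germline. The Argonaute CSR-1 binds 22G-RNAs antisense to a large share of germline-expressed genes and is known for protecting these genes from silencing and for chromosome segregation. WAGO Argonautes bind a separate set that silences its targets. MUT-16 assembles the mutator complex that makes the WAGO-class RNAs, and PRG-1 is the Piwi protein that binds piRNAs, the small RNAs that route many targets into the WAGO pathway.

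Wild type N2 animals were compared with animals carrying *mut-16(pk710)* or *prg-1(n4357)*, both lines outcrossed to N2, as gravid adults of 68 to 70 h kept at 20°C on *E. coli* OP50. Gonads were cut out of pooled animals, and each library holds the distal part of the arms without the region of mature gametes. Whole wild type animals of the same age were a further group. Each group has 3 libraries for small RNA and 3 for mRNA. In *mut-16* gonads *mut-16* mRNA was lower than in wild type by a log2 change of -1.12 and in *prg-1* gonads *prg-1* mRNA by -0.97, the direction their labels give.

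Values are normalized reads as deposited, so a value is comparable between libraries of 1 table and not between tables. Summed values of a library ran from 4.67 to 4.73 (in units of 1e6) for wild type, from 2.91 to 3.195 for *mut-16* and from 5.52 to 6.21 for *prg-1* small RNAs, and from 15.3 to 16.8 for gonad mRNAs. Sperm, intestine and body muscle markers were summed in each gonad mRNA library as a check on dissection. The 90 sperm genes summed to 4034 to 5980 in wild type, 9818 to 18116 in *mut-16* and 14203 to 57112 in *prg-1* libraries, the highest being *prg-1* replicate 3, and 3 to 24 of them were at 0 in a library. The 10 muscle genes, with 0 at 0, summed to 987 to 1133, 2004.9 to 2416 and 2108 to 4194. The 14 intestine genes summed to 137 to 610, 138 to 287 and 339 to 704, with 1 to 4 at 0. Scaled apart, wild type whole animals had 220322 to 225790 for intestine, 5578 to 8957 for sperm and 32301 to 60800 for muscle genes. On that scale wild type gonads had 135 to 610, 3992 to 5735 and 945 to 1132. The part of these marker RNAs in the results below was not tested.

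The members' mean small RNA values in wild type gonads ran from 2514 to 21426 with a median of 4115, and 9 members reached 10000. Together they made up 12.05 to 13.2% of the summed small RNA value of a wild type gonad library, 19.7 to 23.3% of a *mut-16* library and 13.95 to 14.5% of a *prg-1* library. Libraries of 1 genotype lay close together. The median coefficient of variation of a member over 3 libraries was 5.04% for wild type gonads, 5.87% for *mut-16* and 5.30% for *prg-1*.

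At the level threshold *let-418* (2514) and *alh-9* (2519) lay just inside, and *smc-6* (2485) and *trr-1* (2462) just outside. At the lower end of the band *cec-6* (ratio 0.602) and *pid-2* (0.630) lay inside, and *hmg-12* (0.569) and *csr-1* itself (0.534) lay outside. At the upper end *mel-28* had the highest ratio at 1.75, followed by *let-99* at 1.56. The members were chosen by these values, the wild type small RNA level and the *mut-16* ratio, which are given as a description. The set also rests on the scaling. With TMM (trimmed mean of M values) over miRNAs 162 loci met the rule, 53 of them among the 110, and with TMM over all features 129 did, 105 of them shared.

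**Figure D1:**
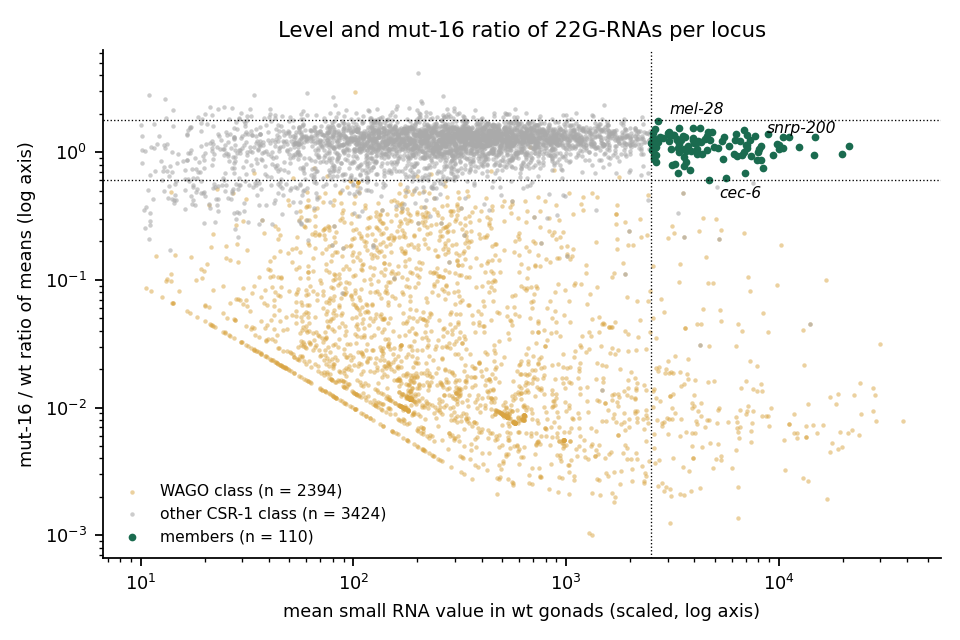
Mean small RNA value in wild type gonads (x axis, scaled, log) against the ratio of *mut-16* to wild type means (y axis, log) for CSR-1-class and WAGO-class loci with a wild type mean of 10 or more. Each point is a locus, dotted lines mark the level of 2500 and the ratios 0.6 and 1.8, and the 110 members fill the box from *cec-6* at 0.602 to *mel-28* at 1.75.

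The 12 members with the highest wild type level held 26.1% of the members' summed small RNA value. In order they were *snrp-200*, *klp-7*, *set-9*, *cls-2*, *klp-18*, *top-2*, *hum-2*, *set-26*, *klp-19*, *klp-10*, *icp-1* and *klp-16*. The order is that of the deposited values and is not per length of the gene. Many of these genes build or move along the spindle: 5 of the 12 encode kinesins, *cls-2* encodes a CLASP protein that binds microtubules, and *icp-1* encodes INCENP of the chromosomal passenger complex.

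*snrp-200*, which encodes a helicase of the spliceosome, had small RNA values of 21415, 20646 and 22218 in wild type, 22204, 24860 and 24297 in *mut-16*, and 21590, 21469 and 22321 in *prg-1*. *klp-7*, a kinesin that depolymerizes microtubules, had 20413, 18763 and 20251 in wild type, 18518, 19572 and 18903 in *mut-16*, and 19772, 19009 and 19400 in *prg-1*. For both genes the libraries of the 3 genotypes overlapped, and the difference between *prg-1* and wild type was not called. *set-9*, whose product is a SET domain protein, stood at 14935, 13941 and 15438 in wild type, 18020, 21241 and 19344 in *mut-16*, and 18787, 18630 and 20271 in *prg-1*. *set-26*, its near-identical copy, stood at 10457, 9781 and 10961, at 12421, 15108 and 13584, and at 12839, 12386 and 14006. For both copies every mutant library lay above every wild type library. Reads shared by the copies could be split between them in counting, so their values are not certain to be separate.

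Of the first 12, *set-9*, *top-2*, *hum-2* and *set-26* had all *mut-16* small RNA values above all wild type values, and the other 8 overlapped. Over all 8031 small RNA features tested 37% lay above in this way and 35.9% below. These values were used to choose the members, and with TMM over miRNAs 0 members had a *mut-16* mean above wild type. *top-2*, which encodes topoisomerase II, had 10699, 10611 and 12197 in wild type and 13138, 15964 and 15144 in *mut-16*. *hum-2*, an unconventional myosin, had 10291, 10179 and 10812 in wild type and 11231, 11065 and 11631 in *mut-16*. In *prg-1* gonads *set-9* and *icp-1* were called higher and the other 10 had no call, where 15.3% of all features were called higher and 47.3% lower. *icp-1* had 9329, 9013 and 11093 in wild type, 10016, 12248 and 11927 in *mut-16*, and 13428, 14236 and 16157 in *prg-1*, so that only the *prg-1* libraries were clear of wild type.

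**Figure D2:**
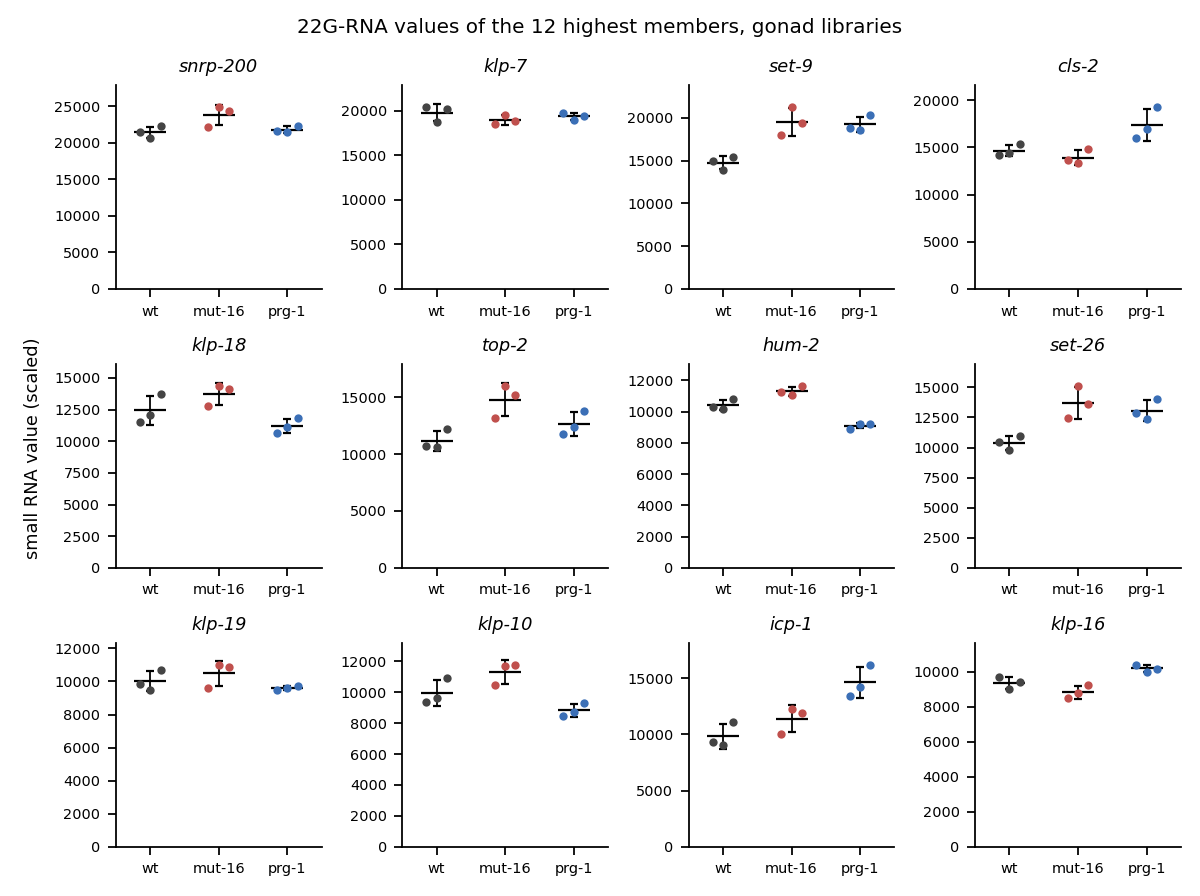
Small RNA values (y axis, scaled, from 0) of the 12 highest members in the 3 wild type, 3 *mut-16* and 3 *prg-1* gonad libraries. Points are libraries and bars are mean ± SD; as deposited, *set-9* and *set-26* libraries of both mutants lie above wild type, and those of *snrp-200* and *klp-7* overlap.

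Over all 110 members the *mut-16* to wild type ratio of small RNA values had a median of 1.13 and quartiles of 0.996 and 1.29. It lay above 1 in 81 members and below 1 in 29. All *mut-16* libraries lay above all wild type libraries for 52 members, where 37% of 8031 small RNA features did so, and below for 16, where 35.9% did. The direction rests on the scaling. The median log2 ratio was 0.18 as deposited, 0.82 with library totals made equal, -0.11 with TMM over all features and -0.78 with TMM over miRNAs only, under which 0 members lay above wild type.

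Ratios by role are given as a description, since the choice of members used and limited these values. Roles were assigned from gene names to 89 of the 110 members after the values were known. The 23 spindle and microtubule genes had a median ratio of 1.16 and ran from 0.839 in *spd-5* to 1.56 in *let-99*. The 11 small RNA pathway and germ granule genes had a median ratio of 1.01, from 0.630 in *pid-2* to 1.22 in *znfx-1*. The 10 genes of RNA synthesis, processing and translation all had ratios above 1, from 1.11 in *snrp-200* to 1.55 in *rpoa-1*, the largest subunit of RNA polymerase I. As deposited 81 of the 110 members had ratios above 1, against 39 with TMM over all features and 0 with TMM over miRNAs. The 11 chromatin and telomere genes spanned 0.602 to 1.41.

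The mRNAs of the members were compared between *mut-16* and wild type gonads, a measure the choice of members did not use. No member was called higher and 13 were called lower, with a call taken as an adjusted p below 0.05 and a change of at least 1.3-fold (limma, Benjamini-Hochberg over 9943 mRNAs). Over all mRNAs tested 15.5% were called higher and 4.6% lower. Without the fold threshold 1 member was higher and 46 were lower, where 1842 and 1252 of the 9943 mRNAs were. In tissue of this kind fewer cells of a type and less RNA per cell cannot be told apart.

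The shift was small for most members. The median log2 change of the members was -0.14, against 0.01 over all mRNAs, and 97 of 110 lay below 0. The 3 *mut-16* libraries lay below the 3 wild type libraries for 67 members and above them for 2, where 24.8% and 28.4% of all mRNAs did so. Of 3489 CSR-1-class loci tested with a lower small RNA level, 1.32% were called higher and 2.75% lower, with a median of -0.07. Of the 8 CSR-1-class loci at the members' level but below the band, 3 were called lower and 0 higher, with a median of -0.24. Of 141 WAGO-class loci at the same small RNA level, 83 were called higher and 15 lower, with a median of 1.08.

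Y73B3A.1, which has no gene name, fell furthest. Its mRNA stood at 478, 473 and 494 in wild type, 88.4, 104 and 127 in *mut-16*, and 52.4, 46.3 and 79.3 in *prg-1* libraries. The log2 change in *mut-16* was -2.18 (SE 0.194, adjusted p = 3.36e-05, limma). Its small RNA values lay below wild type in every mutant library, at 3717, 3307 and 3707 in wild type, 2611, 2950 and 2844 in *mut-16*, and 2364, 2411 and 2536 in *prg-1*.

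Next came genes of small RNA inheritance and of chromosome ends. *wago-4*, an Argonaute that carries silencing between generations, had mRNA values of 3447, 3600 and 4074 in wild type and 1765, 1718 and 1910 in *mut-16*, a log2 change of -1.04 (SE 0.131, adjusted p = 1.02e-03, limma). *tebp-2*, which encodes a telomere-binding protein, had 1508, 1642 and 1672 in wild type and 951, 944 and 983 in *mut-16* (-0.74, SE 0.086, adjusted p = 2.24e-04, limma). *pid-2*, which acts in piRNA-directed silencing, had 1706, 1681 and 1736 in wild type and 1066, 1058 and 977 in *mut-16* (-0.73, SE 0.070, adjusted p = 6.00e-05, limma). For all 3 the groups were well separated, and the highest *mut-16* library lay far below the lowest of wild type.

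Microtubule genes were among the 13 as well. *klp-7* mRNA was at 4614, 4496 and 4669 in wild type and 2756, 2850 and 2795 in *mut-16* (-0.71, SE 0.039, adjusted p = 7.69e-07, limma), while its small RNA values overlapped. *cls-2* mRNA was at 2634, 2630 and 2717 in wild type and 1818, 1765 and 1771 in *mut-16* (-0.58, SE 0.071, adjusted p = 3.68e-04, limma). Its small RNA values were 14241, 14403 and 15361 in wild type and 13676, 13300 and 14787 in *mut-16*, and the groups overlapped. The third was *klp-15*, a kinesin-14 with 7380, 7453 and 7373 in wild type and 5295, 5822 and 5592 in *mut-16* (-0.41). Its close copy *klp-16* had a log2 change of -0.27, below the fold threshold, and reads could be split between the copies.

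The remaining calls were *maph-1.2* (-0.60), F34D10.4 (-0.55), *herd-1* (-0.52), the formin gene *inft-2* (-0.47), the chromodomain gene *cec-6* (-0.44) and the linker histone gene *hil-4* (-0.39). *maph-1.2*, which encodes a homolog of a microtubule-associated protein, had mRNA values of 2051, 1928 and 2158 in wild type and 1284, 1336 and 1424 in *mut-16*. *herd-1* had 4871, 5282 and 5267 in wild type and 3548, 3619 and 3585 in *mut-16*. Of the 13 calls, 11 held in every alternative that kept the fold threshold. *klp-15* was lost without *mut-16* replicate 1, and *hil-4* was lost with library totals made equal, without wild type replicate 1 and without *mut-16* replicate 1.

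The small RNA ratios of the 13 members with lower mRNA, values that the choice of members used and limited, ran from 0.602 in *cec-6* to 1.24 in *maph-1.2*. None of the 14 chromosome segregation and cell cycle genes was called in either mutant against wild type, and their log2 changes in *mut-16* ran from -0.28 to 0.04. Of all 110 members 13 were called in *mut-16*, and 6 were higher and 3 lower in *prg-1*. With few calls among the members and roles given after the values were known, this count is not read as a trait of the role. These 14 include *plk-1* and *cdk-1*, kinases of cell division, *bub-1* of the spindle checkpoint, the centromeric proteins *hcp-3* and *hcp-4*, the cohesin subunit *scc-1* and the meiotic axis protein *htp-1*.

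Genes of the CSR-1 pathway itself were read from a separate list. *csr-1*, *ego-1*, *drh-3* and *ekl-1* encode the Argonaute, the polymerase, a helicase and a Tudor domain partner that make or bind these RNAs, and 0 of the 4 are members. *csr-1* mRNA was at 11017 ± 305 in wild type and 7986 ± 68.5 in *mut-16* (SD, n = 3), a log2 change of -0.46 (adjusted p = 4.77e-05, limma). The others had no call in either mutant. In *prg-1* gonads *csr-1* mRNA was at 10810 ± 449.

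In *prg-1* gonads few of the members' mRNAs were called, and the calls went in both directions. Against wild type 6 members were higher and 3 lower, where 20.7% and 9.53% of all mRNAs were called. Of CSR-1-class loci with a lower small RNA level 1.49% were higher and 6.96% lower. The median log2 change of the members was -0.02, and 104 of 110 members lay within 0.5 of 0. The *prg-1* libraries lay above wild type with no overlap for 15 members and below for 25, against 29.3% and 24.7% of all mRNAs.

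*egg-5* rose most. Its product is an inactive phosphatase that acts with EGG-4 at the change from oocyte to embryo. Its mRNA was at 10973, 10952 and 10215 in wild type, 9293, 9173 and 8872 in *mut-16* and 20433, 20033 and 17687 in *prg-1*, a log2 change of 0.85 in *prg-1* (SE 0.059, adjusted p = 4.23e-06, limma). *egg-4* mRNA was at 7932, 7925 and 7779 in wild type and 9026, 9879 and 9953 in *prg-1*, a log2 change of 0.29 that was under the fold threshold. All *prg-1* libraries lay above wild type for both. The 2 genes are close copies and reads could be split between them.

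The other members higher in *prg-1* were *fib-1* (0.60), F34D10.4 (0.52), *ama-1* (0.48), *ppw-2* (0.46) and *rpoa-1* (0.41). Several of them serve RNA synthesis: *fib-1* encodes fibrillarin of the nucleolus, and *ama-1* and *rpoa-1* encode the largest subunits of RNA polymerases II and I. *fib-1* mRNA was at 5511, 5887 and 6211 in wild type and 7503, 8555 and 10868 in *prg-1*. *ama-1* mRNA was at 4613, 4453 and 4784 in wild type and 5475, 6236 and 7855 in *prg-1*. Of the 6 higher calls, those of *egg-5*, F34D10.4 and *fib-1* held in all 15 alternatives, while that of *ppw-2* was lost in 8, that of *rpoa-1* in 5 and that of *ama-1* in 1. *ppw-2* mRNA was at 5800, 6454 and 7038 in wild type and 7017, 8655 and 11276 in *prg-1*, and the groups overlapped. In *fib-1*, *ama-1* and *ppw-2* alike *prg-1* replicate 3, the library with the most sperm marker RNA, was the highest. Without it 3 members were called higher, *egg-5*, F34D10.4 and *fib-1*, and without *prg-1* replicate 1 there were 10.

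The 3 members with lower mRNA in *prg-1* were Y73B3A.1 (-3.04, SE 0.194, adjusted p = 2.30e-06, limma), *inos-1* and D2005.4. *inos-1*, which encodes the enzyme that makes inositol phosphate from glucose 6-phosphate, had mRNA values of 2422, 2351 and 2252 in wild type, 2059, 2159 and 2266 in *mut-16* and 850, 935 and 832 in *prg-1* (-1.43 in *prg-1*, SE 0.058, adjusted p = 1.17e-07, limma). D2005.4 had 4026, 4381 and 4614 in wild type, 3811, 3963 and 4183 in *mut-16* and 2621, 2506 and 2479 in *prg-1* (-0.77, SE 0.056, adjusted p = 5.89e-06, limma). For both, the *prg-1* libraries stood apart from wild type and *mut-16*, which overlapped. All 3 calls held in every alternative that kept the fold threshold.

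**Figure D3:**
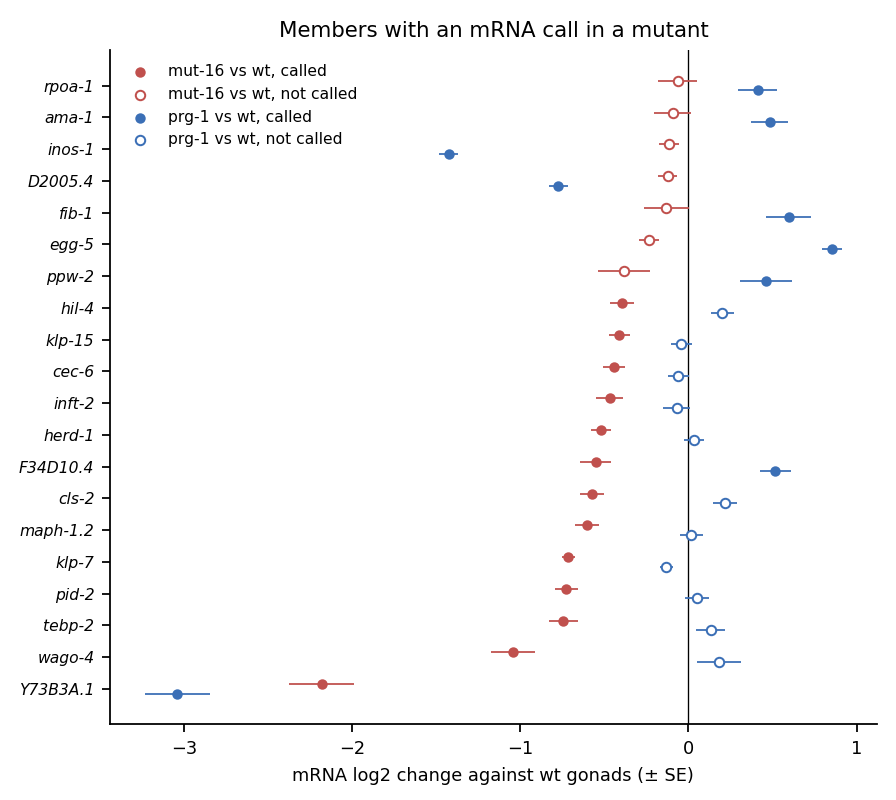
Log2 change of mRNA against wild type gonads (x axis, ± SE) for the members called in *mut-16* or *prg-1*, 1 row a gene. Filled points are called and open points are not; Y73B3A.1 falls in both mutants, *inos-1* and D2005.4 fall in *prg-1*, and *wago-4* is called in *mut-16* and not in *prg-1* (difference between the mutants 1.22).

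The 2 mutants were compared with each other directly, since both comparisons above share the wild type libraries. In *prg-1* against *mut-16* gonads 24 members had higher mRNA and 3 lower, where 5.8% and 9.58% of all mRNAs were called. All *prg-1* libraries lay above all *mut-16* libraries for 53 members and below for 11, against 20.9% and 21.9% of all mRNAs. Of CSR-1-class loci with a lower level 2.92% were higher and 5.9% lower, and of the 8 loci below the band 3 were higher. Without *prg-1* replicate 3 the members called higher numbered 15. Of the 21 named members called higher, 14 held in every alternative, as did 2 of the 3 lower.

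*wago-4* had the largest difference, 1.22 on the log2 scale (SE 0.131, adjusted p = 2.90e-04, limma), with *prg-1* values of 3434, 4193 and 5113. It was followed by *egg-5* (1.09), F34D10.4 (1.07), *tebp-2* (0.88), *ppw-2* (0.84) and *cls-2* (0.79). F34D10.4, which has no gene name, moved in opposite directions: its mRNA was at 498, 531 and 552 in wild type, 341, 342 and 395 in *mut-16* and 680, 749 and 840 in *prg-1*, with no overlap between genotypes. The lower members were *inos-1* (-1.31), Y73B3A.1 (-0.86) and D2005.4 (-0.65), the same 3 as against wild type.

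Of the 11 members given a small RNA or germ granule role, 6 were called higher in *prg-1* than in *mut-16*. Of all 110 members 24 were called higher, and of all mRNAs 5.8%. The count by role has no test, since roles were given after the values were known. The 6 include *pgl-1* and *glh-1*, which encode core proteins of P granules, *znfx-1*, a helicase of the neighbouring Z granules, and the Argonaute gene *ppw-2*. The calls of *pgl-1* and *ppw-2* held in all 15 alternatives, and that of *glh-1* was lost in 9. The call of *znfx-1* was not followed through the alternatives. *pgl-1* mRNA was at 11466, 12207 and 12762 in wild type, 9157, 9552 and 9879 in *mut-16* and 12496, 13465 and 14931 in *prg-1*. Its log2 difference between the mutants was 0.51 (SE 0.068, adjusted p = 4.45e-04, limma) and it had no call against wild type in either. On the fixed P granule list of 17 genes, of which *pgl-1*, *pgl-3*, *glh-1*, *glh-4* and *car-1* are members, 2 had more mRNA in *prg-1* gonads and 6 less when set against *mut-16*. Over all mRNAs 5.8% had more and 9.58% less in that comparison. Against wild type 0 of the 17 were called in *mut-16*, and 0 were higher and 6 lower in *prg-1*. Over all mRNAs 15.5% were higher and 4.6% lower in *mut-16*, and 20.7% and 9.53% in *prg-1*. In all, 82 of the 110 members had no mRNA call in any comparison of mutants. Of all 9943 mRNAs 7942 had no call in *mut-16*, 6932 in *prg-1* and 8413 between the mutants, each comparison taken alone.

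Small RNA values of the members were then compared between *prg-1* and wild type gonads. The wild type libraries are those that set the members' level, and the *prg-1* libraries had no part in the choice. As deposited, 34 members were higher and 9 lower, where 15.3% and 47.3% of 8031 small RNA features were called. The median log2 change was 0.14 for members and -0.42 over all features. CSR-1-class loci with a lower level had nearly the same median, 0.11, and 21.3% of 3437 were called higher and 12.3% lower. Of the 8 loci below the band 3 were higher and 1 lower, so rises occurred in CSR-1-class loci outside the members too. *prg-1* libraries lay above wild type with no overlap for 57 members and below for 26, against 25.4% and 53.7% of all features. These counts depend on the scaling. They were 7 higher and 30 lower when all library totals were set equal and 12 and 25 under TMM over all features. With TMM over miRNAs they were 2 and 85. In the same order the calls over all features tested were 537 higher and 4753 lower, 624 and 4481, and 125 and 7058. These scalings moved the median of all features by -0.35, -0.28 and -1.27. Count tests on reads worked back from the values, without *prg-1* replicate 1, gave 38 and 8 (edgeR) and 37 and 9 (DESeq2), each with its own size factors.

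Among the members named here, *inos-1* and *xpf-1* were the ones called higher under every alternative. *inos-1* lies inside *xpf-1*, a nuclease gene of DNA repair, in the RefSeq annotation, and their values were close to each other in every library. *inos-1* small RNA values were 7825, 5612 and 5679 in wild type, 5741, 5948 and 5981 in *mut-16* and 78383, 77797 and 87681 in *prg-1*, a 12.9-fold rise (log2 3.69, SE 0.116, adjusted p = 1.07e-08, limma). *xpf-1* values were 8178, 5947 and 6023 in wild type, 6211, 6382 and 6437 in *mut-16* and 79329, 78714 and 88558 in *prg-1*, a 12.4-fold rise. The *prg-1* libraries lay far above all others, while *mut-16* and wild type overlapped.

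The *inos-1* value came to 94.3 to 95.7% of the *xpf-1* value in wild type, 92.4 to 93.2% in *mut-16* and 98.8 to 99.0% in *prg-1*. The *xpf-1* value exceeded that of *inos-1* by 335 to 353 in wild type, 434 to 470 in *mut-16* and 878 to 946 in *prg-1*. Whether the same reads were counted for both was not tested. Taken as 1 locus, the pair leaves 109 loci. *inos-1* mRNA fell in the same gonads, as given above, and *xpf-1* mRNA stood at 2258, 2440 and 2317 in wild type and 2214, 2303 and 2171 in *prg-1*, with no call (log2 change -0.07). Without the pair the members' share of a *prg-1* library was 11.2 to 11.6%.

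D2005.4 went the other way. Its small RNA values were 2358, 2607 and 2803 in wild type, 2155, 2305 and 2406 in *mut-16* and 408, 457 and 376 in *prg-1*, a log2 change of -2.64 (SE 0.087, adjusted p = 6.03e-09, limma), and its mRNA fell as well. It overlaps D2005.3, a WAGO-class locus whose small RNA values were 411 to 433 in wild type, 85.6 to 108 in *mut-16* and 93.7 to 123 in *prg-1*. The overlapping neighbour was thus low in both mutants, whereas D2005.4 was low in *prg-1*.

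*egg-5* and *egg-4* lost small RNAs in *prg-1* while *egg-5* mRNA rose. *egg-5* small RNA values were 4870, 4616 and 4771 in wild type, 5810, 6110 and 5875 in *mut-16* and 2999, 2905 and 2685 in *prg-1*, a log2 change of -0.73 in *prg-1* (SE 0.056, adjusted p = 9.35e-07, limma). *egg-4* values were 4684, 4363 and 4440, then 5540, 5887 and 5733, then 3292, 3161 and 3070, a change of -0.50 (SE 0.053, adjusted p = 9.09e-06, limma). For both genes the 3 genotypes did not overlap as deposited, with *mut-16* highest and *prg-1* lowest. The place of *mut-16* rests on the scaling, and its values were used to choose the members. With TMM over miRNAs 0 members, *egg-5* and *egg-4* included, had a *mut-16* mean above wild type. The other members lower in *prg-1* were *pole-1*, the catalytic subunit of DNA polymerase epsilon (-0.61), Y73B3A.1 (-0.55), the ubiquitin ligase gene *eel-1* (-0.53), the dynein heavy chain gene *dhc-1* (-0.47), *gfat-2* (-0.46) and *hcp-1* (-0.39).

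**Figure D4:**
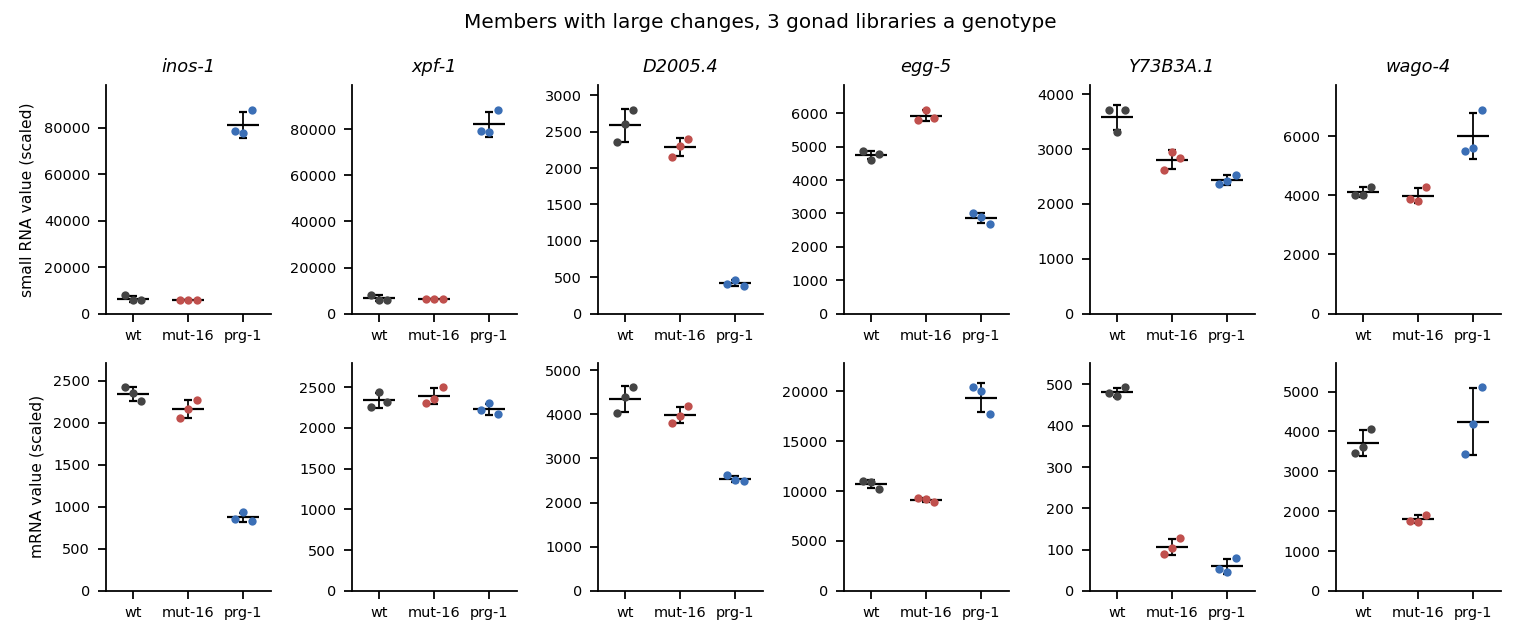
Small RNA (top) and mRNA (bottom) values of 6 members in 3 gonad libraries a genotype (y axes scaled, from 0). Points are libraries and bars are mean ± SD; *inos-1* small RNA rises 12.9-fold in *prg-1* as its mRNA falls, *xpf-1* mRNA libraries overlap, and *egg-5* small RNA falls in *prg-1* where its mRNA rises.

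After *inos-1* and *xpf-1* the largest rises in *prg-1* were in F34D10.4 (1.08), *ekl-7* (0.96), T07A9.14 (0.89) and *pid-2* (0.82). F34D10.4 small RNA values were 4767, 4625 and 5533 in wild type, 4981, 5628 and 5646 in *mut-16* and 9550, 9997 and 12092 in *prg-1*. *pid-2* values were 5286, 5520 and 6070 in wild type, 3237, 3495 and 3901 in *mut-16* and 8940, 9625 and 11411 in *prg-1*, so this gene was lowest in *mut-16* and highest in *prg-1*. *wago-4* had 4017, 4008 and 4293 in wild type, 3860, 3810 and 4283 in *mut-16* and 5500, 5616 and 6893 in *prg-1* (0.54). The log2 changes of F34D10.4, *ekl-7*, T07A9.14, *pid-2* and *wago-4* lay below 0 with TMM over miRNAs, at -0.16 for F34D10.4 and -0.41 for *pid-2*. None of these had an adjusted p below 0.05 under that scaling (limma).

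Set against mRNA calls in the same mutant, 32 of the 34 members with more small RNA had no mRNA call, *inos-1* had less mRNA and F34D10.4 had more. Of the 9 with less small RNA, 6 had no mRNA call, *egg-5* had more mRNA, and Y73B3A.1 and D2005.4 had less. The 4 others with an mRNA call, *ama-1*, *ppw-2*, *rpoa-1* and *fib-1*, had no small RNA call. Each combination of directions was thus present as deposited. More of both rested on F34D10.4 alone, and the opposite directions on *inos-1* and *egg-5* alone. The small RNA change of F34D10.4 was -0.16 with TMM over miRNAs, and the small RNA calls depend on the scaling. These pairs of calls were not counted over all features.

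Wild type gonads were last compared with whole wild type animals, in tables scaled on their own. All 110 members had higher small RNA values in gonads, where 31.9% of 7191 features were called higher and 23.2% lower (limma). The 3 gonad libraries lay above the 3 whole animal libraries for all 110 and below for 0, against 39.4% and 28.2% of all features. The gonad libraries are those used to choose the members for a high level. The median log2 difference was 1.29 for members and 0.18 over all features, and scaling shifts of all features were 0.30 with equal totals, 0.12 with TMM and 4.53 with TMM over miRNAs. Whole animal libraries were the shallowest, with 505952 to 1642602 reads worked back from the values, against 4215264 to 7051210 in wild type gonad libraries.

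The members' share of the small RNA value was 3.59 to 4.51% in whole animals. Their log2 differences ran from 0.42 in *cec-6* to 2.04 in *inos-1*. *cec-6* had 1674, 1725 and 1979 in gonads and 1509, 1304 and 1206 in whole animals. *inos-1* had 2999, 2105 and 2230 in gonads and 426, 790 and 592 in whole animals. In neither gene did the groups overlap. Of CSR-1-class loci with a lower level, 59.6% were higher in gonads, and of WAGO-class loci at the same level 15.2% were higher and 16.7% lower. Of the 8 loci below the band, 4 were higher.

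Most of the mRNAs were also higher in gonads, with 87 members higher, 3 lower and 20 with no call, where 26.1% of 12761 mRNAs were higher and 52.6% lower. Gonad libraries lay above whole animals with no overlap for 100 members and below for 3, against 34.4% and 53.4% of all mRNAs. The median log2 difference was 0.72, against -0.79 over all mRNAs, and equal totals moved the median of all by -0.14. Of CSR-1-class loci with a lower level 55.1% were higher and 9.71% lower, and of the 8 below the band 6 were higher.

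*klp-10*, which encodes a kinesin-like protein, had the largest difference, with mRNA at 4158, 3998 and 4214 in gonads and 1212, 1072 and 1106 in whole animals (1.87, SE 0.066, adjusted p = 4.63e-08, limma). *klp-7* (1.43), *snpc-3.1* (1.43), T07A9.14 (1.34), *snpc-3.2* (1.32) and *gpr-1* (1.29) followed. *snpc-3.1* and *snpc-3.2*, which encode a factor for transcription of small nuclear RNAs, are close copies, as are *gpr-1* and *gpr-2*, regulators of spindle position, and their reads could be split.

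The 3 lower members were *alh-9*, an aldehyde dehydrogenase gene, *mel-32*, which encodes serine hydroxymethyltransferase, and *eel-1*. *alh-9* mRNA was at 1864, 1889 and 1882 in gonads and 4161, 5492 and 4820 in whole animals (-1.35, SE 0.094, adjusted p = 1.70e-06, limma). *mel-32* mRNA was at 7432, 7308 and 7522 in gonads and 13505, 15000 and 13962 in whole animals (-0.93, SE 0.058, adjusted p = 8.10e-07, limma). Small RNAs of these genes were higher in gonads nonetheless, *alh-9* by a log2 difference of 1.10 and *mel-32* by 1.34.

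**Figure D5:**
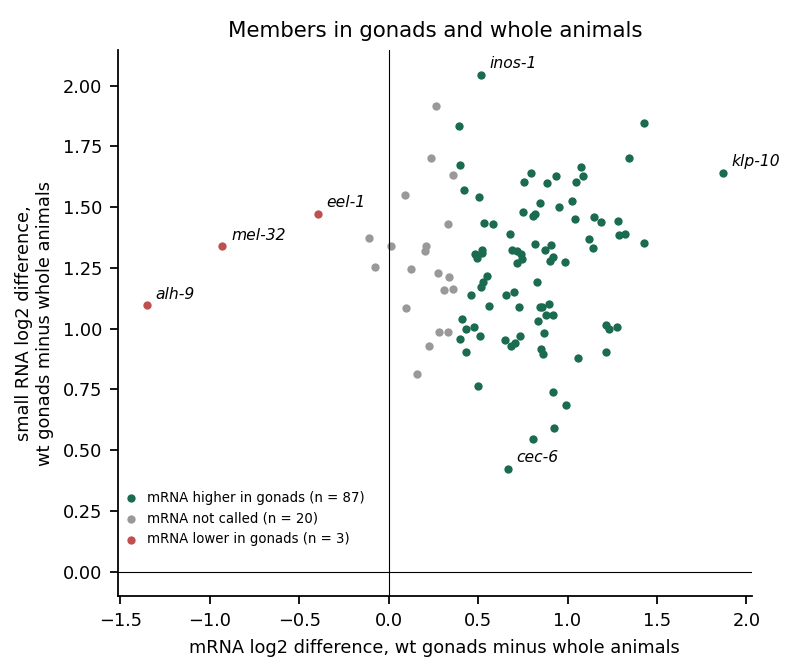
Log2 difference between wild type gonads and whole animals in mRNA (x axis) and small RNA (y axis) for the 110 members, with points coloured by mRNA call (87 higher, 20 not called, 3 lower). All 110 lie above 0 on the y axis, which uses the gonad small RNA libraries that chose the members; *alh-9*, *mel-32* and *eel-1* have less mRNA but more small RNA in gonads.

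Members were also counted on the fixed gene lists, with no test of the counts. The cell cycle and spindle list has 16 members among its 43 genes, of which 41 are CSR-1-class loci. The translation list of 115 genes and the actin, tubulin and membrane traffic list of 42 genes have 0 members. On these lists 47 and 37 genes are CSR-1-class loci. Of all 3640 CSR-1-class loci 110 are members, so a count of 0 on lists of this size is not read as an absence. The P granule list has 5 members of 17, the Argonaute list 3 of 19 (*wago-4*, *hrde-1* and *ppw-2*), the chromatin list 4 of 26, the eggshell list 2 of 13 and the nuclear pore list 2 of 40. On the cell cycle and spindle list as a whole, 0 genes were higher and 3 lower in *mut-16*, 0 higher and 1 lower in *prg-1*, and 39 of 43 higher in gonads than in whole animals. Over all mRNAs 15.5% were called higher and 4.6% lower in *mut-16*, and 20.7% and 9.53% in *prg-1*. In gonads 26.1% of all mRNAs were higher, as were 55.1% of CSR-1-class loci with a lower small RNA level.

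In the RefSeq annotation 21 members overlap another coding gene, and 4 pairs of members are next to each other on a chromosome. In the pair *cec-6* and *tebp-2* both were lower in *mut-16* mRNA and both had small RNA ratios below 1. In the pair *pgl-3* and *hil-4* only *hil-4* mRNA was called lower. In the pairs *unc-85* and *scc-1*, and *lin-5* and *ostb-1*, neither mRNA was called in *mut-16*. Whether reads of overlapping genes were told apart by strand is not stated, so values of such genes may hold reads of the partner.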

How the data were processed

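Small RNA and mRNA libraries of wild type, *prg-1(n4357)* and *mut-16(pk710)* distal gonads and of wild type whole animals were used, with 3 biological replicates per group. The authors deposited normalized signal values per feature. For mRNAs they used Trimmomatic 0.35, STAR 2.5.0a and RSEM 1.3.0, and for small RNAs CASHX, SAMtools 1.6 and scripts of their own. They name DESeq2 1.18.1, and how the deposited signal was scaled is not stated. Tables of transposons were not used. Wild type gonad reads are the same in both small RNA tables and were scaled apart.

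Count tests were planned for count tables. The tables hold scaled values, so limma 3.58.1 (trend, robust) was run on log2 of the value plus 1, in 1 fit of 9 gonad libraries per assay and 1 fit of 6 libraries for gonads against whole animals. Features with a value of 10 or more in fewer than 3 libraries were not tested. A call needs an adjusted p below 0.05 over all features and a 1.3-fold change. Small RNA values are whole multiples of a step (tolerance 0.01 of a read), and the reads recovered from them were tested with edgeR 4.0.16 and DESeq2 1.42.0 as alternatives. *prg-1* replicate 1 is left out there because its step could not be told from rounding. The script was tested on simulated data.

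Same-numbered replicates deviated together in the mRNA of *mut-16* and wild type gonads (residual correlations 0.124 to 0.547) and not in other pairs of groups, so an alternative fit paired the replicates. Further alternatives were other scalings, pseudocounts of 0.5 and 5, other low-value filters, fits of the compared groups alone, a level of 5000, a band of 0.7 to 1.4, no fold threshold, and leaving out single libraries. Members and lists were chosen with earlier results of these data known. Genes are named when among the 12 highest in wild type small RNA, among up to 6 called per direction with the largest change, at an edge of the rule, or in a fixed list. Other genes named, and all roles, were chosen after values were seen. Names and gene overlaps come from RefSeq WBcel235, and the authors mapped to another release, so no position is given.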

Additional observations from a re-analysis of the deposited data

Results flagged for a closer look

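For 4 members the 2 mutants had mRNA effects that differed by more than 1 on the log2 scale in a direct test (limma, 3 libraries per genotype). Taken as *prg-1* minus *mut-16*, the difference was -1.31 for *inos-1*, 1.22 for *wago-4*, 1.09 for *egg-5* and 1.07 for F34D10.4. In each of the 4 genes the 3 *prg-1* libraries lay on one side of the 3 *mut-16* libraries. The genes were chosen by this same comparison, so the separation adds no support to it. Over all mRNAs 20.9% lay above and 21.9% below with no overlap.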

How the results depend on the processing

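Leaving out 1 library at a time gave 104 to 112 members. It gave 0 higher and 11 to 13 lower mRNAs in *mut-16*, 3 to 10 higher and 3 to 4 lower in *prg-1*, and 15 to 30 higher and 3 lower between the mutants. It gave 31 to 37 higher and 8 to 9 lower small RNAs in *prg-1*, and in gonads against whole animals 79 to 90 higher and 2 to 3 lower mRNAs and 109 to 110 higher and 0 lower small RNAs. Where this left a group of 2, its libraries were taken to vary like the others in the fit.

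The number of members was 51 with library totals made equal (48 of them shared with the 110), 41 with a level of 5000, 129 with TMM over all features (105 shared) and 162 with TMM over miRNAs (53 shared). Without the fold threshold the mRNA calls were 1 higher and 46 lower in *mut-16*, 15 and 17 in *prg-1*, and 48 and 6 between the mutants. Small RNA calls in *prg-1* were then 54 and 18. In the same order the calls over all features were 1842 and 1252, 2417 and 1817, 1127 and 1476, and 1653 and 3968. Small RNA calls in *prg-1* were 7 higher and 30 lower with equal totals, 12 and 25 under TMM over all features, and 2 and 85 under TMM scaled on miRNAs. Over all features tested they were 537 and 4753, 624 and 4481, and 125 and 7058. The cause was not tested.

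With TMM over miRNAs the median log2 change of the 110 members in *prg-1* small RNA went from 0.14 to -1.10. Of the named members called higher as deposited, 19 had a log2 change below 0: *set-9* -0.86, *herd-1* -0.85, *cec-6* -0.80, *tac-1* -0.76, *cdk-1* -0.70, *tebp-2* -0.70, *wago-4* -0.70, *maph-1.2* -0.68, *icp-1* -0.66, *snpc-3.1* -0.63, *car-1* -0.63, *glh-1* -0.59, *snpc-3.2* -0.59, *hil-4* -0.58, *htp-1* -0.55, *pid-2* -0.41, T07A9.14 -0.34, *ekl-7* -0.28 and F34D10.4 -0.16. Under that scaling *set-9*, *herd-1* and *cec-6* had an adjusted p below 0.05 (limma), and the others did not.

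With the replicate block, which pairs wild type and *mut-16* gonads by number, 14 members had lower mRNA in *mut-16*, and no count of calls moved by more than 1.5 times. Among single genes under all alternatives with the fold threshold, 5432 values kept their status as called or not called, 102 lost the call and 79 gained one. A further 19 values called in the main fit changed sign. Direction was compared only for values called in the main fit. The whole animal small RNA libraries were the shallowest.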
